A study of Homo sapiens with 6 samples.

Results

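SCARA5, a cell-surface receptor that takes up ferritin, and 9 further genes of cellular iron handling were followed in sorafenib-resistant liver cancer cells given fostamatinib. The members were picked by gene symbol, and the other 9 were TFRC, TFR2, FTH1, FTL, SLC40A1, HAMP, HFE, SLC11A2 and IREB2. Of the 10 genes, 8 are among the 16305 genes of the files, and TFR2 and HAMP were not analysed here. SCARA5 was put on the list because its rise in this same comparison is among the largest, so its values are given as a description and no test is attached to them. The rule names the other genes by function, and the 7 of them in the files carry a test, although the list as a whole was drawn up with earlier results of these data known.

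The cells were Huh7SR, derived from the human hepatocellular carcinoma line Huh7 by long exposure to the kinase inhibitor sorafenib, and both groups share this origin. RNA was sequenced from 3 samples treated with fostamatinib, an inhibitor of spleen tyrosine kinase, and 3 treated with the solvent DMSO. The study found no protein of that kinase in Huh7 cells and leaves the drug's direct targets in this cancer to later work. The labels give 2 µM for both groups and 24 h of treatment. Per the study's methods, sorafenib was taken out of the medium for several days before experiments. The labels say that the drugs were applied in triplicate but not whether the 3 samples came from separate cultures, so the p-values may measure only a technical spread.

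Iron enters most cells as transferrin bound to the transferrin receptor, is reduced and carried into the cytosol, and is either used, stored in ferritin or exported through ferroportin. Ferritin is a shell of heavy and light chains, of which the heavy chain oxidises iron and the light chain favours its deposition. In hepatocytes the peptide hormone hepcidin is made in response to iron, and it removes ferroportin from cell surfaces. Within the cell, 2 iron regulatory proteins bind a hairpin called the iron-responsive element (IRE) when iron is scarce. A hairpin in the 5′ UTR then blocks translation, and hairpins in the 3′ UTR protect the mRNA from decay.

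The hairpins of the member mRNAs are shown first because they place the genes in 2 classes. The search pattern was a C, 5 bases, the loop CAGTGN with any base but G at its end, and 5 bases that pair with the first 5, with G-U pairs allowed. Sequences are 29 bases long, the match with 6 bases on either side, read 5′ to 3′ on the sense strand of GENCODE transcripts on GRCh37, with the 6-base loop in capitals. FTH1, FTL and SLC40A1 each hold 1 fully paired hairpin in the 5′ UTR, at chr11:61735046-61735074 (- strand), chr19:49468592-49468620 (+ strand) and chr2:190445387-190445415 (- strand).
FTH1: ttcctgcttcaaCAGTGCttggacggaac
FTL: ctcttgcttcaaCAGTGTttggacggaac
SLC40A1: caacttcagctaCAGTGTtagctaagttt
TFRC holds 4 fully paired hairpins in the 3′ UTR (- strand). They lie at chr3:195777850-195777878 (site A), chr3:195777446-195777474 (site B), chr3:195777381-195777409 (site C) and chr3:195777334-195777362 (site D). The letters only give the 5′ to 3′ order of these matches and are not taken from published names. Elements outside the search pattern were not looked for. SLC11A2 holds 1 in the 3′ UTR of an isoform, at chr12:51382052-51382080 (- strand), with 1 unpaired position in the stem.
TFRC site A: aattatcggaagCAGTGCcttccataatt
TFRC site B: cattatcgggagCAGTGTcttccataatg
TFRC site C: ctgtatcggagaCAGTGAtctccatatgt
TFRC site D: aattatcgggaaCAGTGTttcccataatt
SLC11A2: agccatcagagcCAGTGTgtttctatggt
A fully paired match occurs in 1.13% of the 19833 protein-coding genes searched, and a match with at most 1 unpaired position in 8.22%. These shares count matches anywhere in a protein-coding transcript, coding sequence included, and are not shares of UTR matches. The looser pattern also matched the 3′ UTR of HFE, IREB2 and, outside the members, ACO1. Matches in SCARA5 were not recorded, so nothing is said here on whether it holds one. A match with an unpaired position, that of SLC11A2 included, thus describes less.

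After fostamatinib, FTL and the exporter gene SLC40A1 rose and the uptake genes TFRC and SLC11A2 fell, while the FTH1 samples of the 2 groups overlapped. HFE and IREB2 rose by less. SCARA5 went from 1 to 2 reads per sample to over 100. The reads on the listed genes numbered 13303451 to 15272737 per sample, and all values were turned back into whole reads. Levels are log2 CPM, the log2 of the reads scaled by the authors to a common library size, and changes are log2 differences from limma with Benjamini-Hochberg adjusted p-values over 16305 genes. In this comparison 47.8% of all genes had an adjusted p-value under 0.05, 23.3% higher and 24.5% lower after fostamatinib, and the groups did not overlap for 54.1%. All 7 tested members passed, 4 higher and 3 lower, which has to be read against so common a call, and the groups lay apart for 6 of the 7. The median change over the 7 genes was 0.19, and 0.0015 over all genes. In such bulk samples of a cultured line, fewer cells that express a gene and less of its RNA per cell cannot be told apart.

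**Figure D1:**
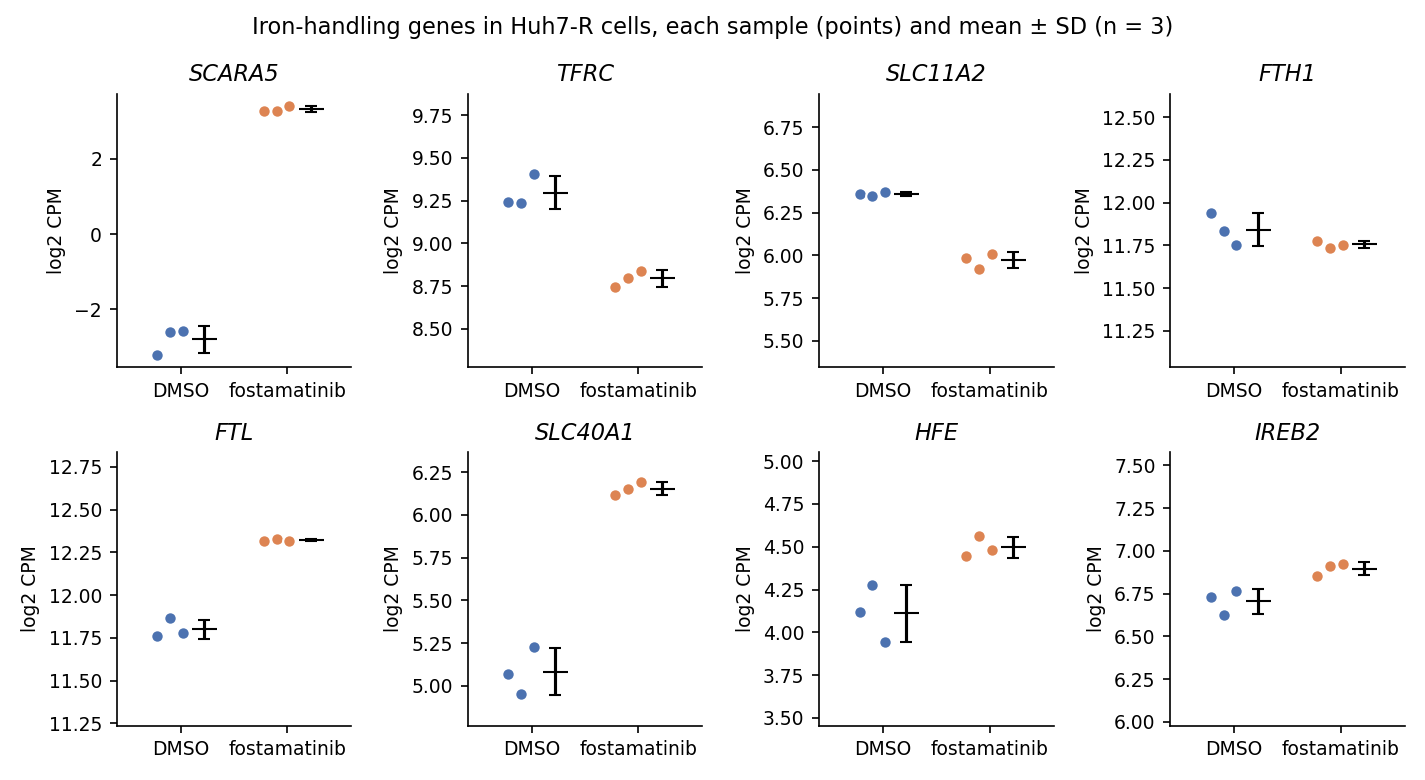
Each panel plots the log2 CPM of 1 gene on its own vertical axis for the 3 DMSO samples (blue) and the 3 fostamatinib samples (orange), with the mean and SD as a black mark and bar (n = 3). The groups lie apart in 7 panels and overlap for FTH1, and the axis of SCARA5 spans far more than the others.

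SCARA5 (ENSG00000168079) lies on GRCh37 chromosome 8 between 27727400 and 27850190 (- strand). It had 1, 2 and 2 reads under DMSO and 131, 137 and 139 under fostamatinib. Every fostamatinib sample lay far above every DMSO sample, and the 3 treated samples were close to each other. Its level went from a mean of -2.79 ± 0.35 to 3.31 ± 0.077 log2 CPM (SD of 3 samples), a difference of 6.10 on the log2 scale. Summed over the samples, 5 reads stood against 407, a CPM ratio of 86.6. SCARA5 reached the authors' minimum of 5 reads in the fostamatinib group alone, so it was listed only through the group where it is higher. Adding 2 in place of 0.5 to each count lowered the log2 difference to 5.33, since 0.5 is large beside 1 or 2 reads. SCARA5 ranked 2 by log2 difference among all genes, with the gene above at 6.69 and the gene below at 4.96. These are the values that chose it.

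Even after fostamatinib, SCARA5 was the least abundant of the 8 genes per length of transcript. Its level was 0.0370 ± 0.0083 CPM per kb of the canonical transcript under DMSO and 2.50 ± 0.13 (SD, n = 3) with fostamatinib. HFE, the next gene up, stood at 4.36 ± 0.19 CPM per kb (SD, n = 3) in the same fostamatinib samples, and the 2 genes did not overlap. TFRC was at 88.7 CPM per kb, FTH1 at 2874 and FTL at 5874 CPM per kb. All neighbours in this order of the 8 genes lay apart. An antisense lncRNA, not analysed here, overlaps exons of SCARA5.

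The genes whose pattern was most like SCARA5 over the 6 samples were ADD1 (Pearson r = 0.9998), MAOB (0.9998), SEMA4G (0.9997), NHSL1 (0.9995) and DCAF11 (0.9995), among 11718 genes that averaged 50 reads or more in their higher group. MAOB, which encodes a mitochondrial monoamine oxidase, had 356, 444 and 437 reads under DMSO and 1315, 1326 and 1324 under fostamatinib. For ADD1, a cytoskeletal gene, the log2 difference was 0.38. In all, 360 genes had r over 0.99. The DMSO values of SCARA5 rest on 1, 2 and 2 reads, so the order among these genes can turn on a single read. The points of such a correlation share the split into 2 groups, and the log2 differences of the 5 genes ran from 0.38 to 1.78, all far below that of SCARA5.

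SCARA5 belongs to the class A scavenger receptors, trimeric membrane proteins with a collagen-like or coiled stalk. Of the other 4 genes of this class that were looked for, SCARA3, MSR1 and COLEC12 were listed and MARCO was not analysed here. COLEC12, a collectin-type scavenger receptor, had 10, 13 and 18 reads under DMSO and 37, 33 and 34 under fostamatinib, and it rose by 1.44 on the log2 scale (SE 0.27, limma adjusted p = 4.09e-05). MSR1, the macrophage scavenger receptor, did not pass (-0.065, limma adjusted p = 0.804), nor did SCARA3 (-0.93, limma adjusted p = 0.140). SCARA3 had 5, 12 and 8 reads under DMSO and 4, 4 and 3 under fostamatinib. It reached the authors' minimum of 5 reads in the DMSO group alone, and its counts are too low to size a change.

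Among the uptake genes, TFRC (ENSG00000072274, transferrin receptor 1) lies on GRCh37 chromosome 3 between 195739382 and 195809024 (- strand). It had 8347, 9213 and 10087 reads under DMSO and 5905, 6344 and 6077 under fostamatinib. All 3 treated samples lay below all 3 DMSO samples. The level fell from a mean of 9.30 ± 0.096 to 8.79 ± 0.048 log2 CPM (SD of 3 samples), a log2 change of -0.50 ± 0.040 (SE, 95% interval -0.58 to -0.42, limma adjusted p = 6.30e-13), or -29.3%. This is more than the spread between samples of either group. With each sample left out in turn the change lay between -0.53 and -0.45.

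SLC11A2 (ENSG00000110911) lies on GRCh37 chromosome 12 between 51373184 and 51422349 (- strand). It encodes the divalent metal transporter DMT1, which carries ferrous iron out of the endosome. There were 1131, 1242 and 1231 reads under DMSO and 872, 863 and 853 under fostamatinib, with no overlap of the groups. The level fell from a mean of 6.36 ± 0.013 to 5.97 ± 0.046 log2 CPM (SD of 3 samples), a log2 change of -0.39 ± 0.051 (SE, limma adjusted p = 7.10e-08). Gene-level values do not separate the isoform that carries the 3′ hairpin from the one that does not.

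The ferritin chains were the most abundant members and moved differently. FTL (ENSG00000087086, light chain) lies on GRCh37 chromosome 19 between 49468566 and 49470136 (+ strand). It had 47867, 56903 and 52165 reads under DMSO and 70173, 73262 and 67696 under fostamatinib. Every treated sample was higher than every DMSO sample. Its level rose from a mean of 11.80 ± 0.055 to 12.32 ± 0.0058 log2 CPM (SD of 3 samples), a log2 change of 0.52 ± 0.031 (SE, 95% interval 0.46 to 0.58, limma adjusted p = 2.79e-16), or 43.4%.

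FTH1 (ENSG00000167996, heavy chain) lies on GRCh37 chromosome 11 between 61727190 and 61735106 (- strand). It had 54152, 55738 and 51177 reads under DMSO and 48255, 48610 and 45780 under fostamatinib. In log2 CPM the DMSO values were 11.94, 11.83 and 11.75 and the treated values 11.78, 11.74 and 11.75, so that the lowest DMSO sample lay among the treated ones. The log2 change of -0.086 ± 0.035 (SE, 95% interval -0.16 to -0.015, limma adjusted p = 0.0412) passed narrowly. Without DMSO replicate 1 it was -0.037 with an adjusted p of 0.442, and it also missed the threshold without the variance trend (adjusted p = 0.320, limma) and under 6 further settings. In the main fit the interval reached down to -0.16, smaller in size than the rise of FTL. That interval rests on the variance trend and on all samples, and without DMSO replicate 3 the change was -0.13.

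The difference between the chains was also computed within each sample. FTH1 minus FTL was 0.18, -0.030 and -0.028 under DMSO and -0.54, -0.59 and -0.56 under fostamatinib, on the log2 CPM scale. The groups did not overlap, and the mean changed by -0.61 (exact permutation test over samples, two-sided p = 0.10, the smallest that 3 against 3 allow). Per length of transcript, the FTL level was 1.35 ± 0.11 times that of FTH1 with DMSO and 2.04 ± 0.037 times with fostamatinib (SD, n = 3). TFRC minus FTH1 changed by -0.41, from -2.55 ± 0.18 to -2.96 ± 0.062 (SD, n = 3), again without overlap (exact permutation test, two-sided p = 0.10). The 2 contrasts share FTH1 and are not independent, and TFRC minus TFR2 could not be computed.

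**Figure D2:**
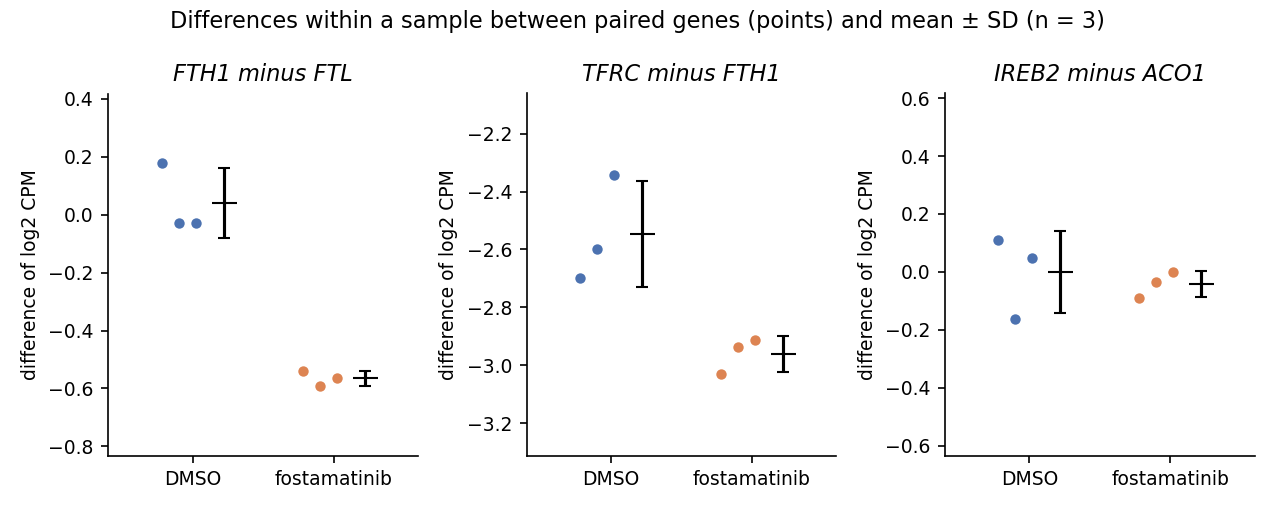
The vertical axis of each panel is the difference of log2 CPM between 2 genes in the same sample, for DMSO (blue) and fostamatinib (orange) samples, with the mean and SD as a black mark and bar (n = 3). FTH1 minus FTL and TFRC minus FTH1 are lower in all 3 fostamatinib samples, and IREB2 minus ACO1 overlaps between the groups.

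Processed pseudogenes bear on the ferritin values, since reads of the parent genes can be placed on near-identical copies. The files list 11 FTH1 pseudogenes, and none of them passed in limma's test at an adjusted p under 0.05. FTH1P10, the most abundant, had 262, 323 and 279 reads under DMSO and 313, 301 and 293 under fostamatinib (limma adjusted p = 0.0955). Together they held 2.05% to 2.43% as many reads as FTH1 under DMSO and 2.32% to 2.56% under fostamatinib. Of the 2 FTL pseudogenes, FTLP3 rose beside its parent, from 105, 147 and 124 reads to 179, 178 and 182 (log2 change 0.62 ± 0.11 SE, limma adjusted p = 1.66e-05). Reads of FTL placed on FTLP3 cannot be told apart from transcription of FTLP3. Exons of BEST1 overlap FTH1 on the other strand, and BEST1 had 207, 221 and 176 reads under DMSO and 87, 90 and 96 under fostamatinib, few beside the reads of FTH1.

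SLC40A1 (ENSG00000138449) lies on GRCh37 chromosome 2 between 190425316 and 190448484 (- strand). It encodes ferroportin, the only known cellular iron exporter. It had 463, 471 and 555 reads under DMSO and 954, 1013 and 967 under fostamatinib, with every treated sample well above every DMSO sample. The level rose from a mean of 5.08 ± 0.14 to 6.15 ± 0.037 log2 CPM (SD of 3 samples), a log2 change of 1.07 ± 0.063 (SE, 95% interval 0.94 to 1.20, limma adjusted p = 2.13e-16). This was the largest change among the 7 tested members and the only one past 2-fold. Of all genes, 7.13% reached that size with an adjusted p under 0.05. Per length of transcript, SLC40A1 lay below IREB2 and SLC11A2 with DMSO (10.2 against 16.5 and 19.9 CPM per kb) and above both with fostamatinib (21.4 against 18.8 and 15.2 CPM per kb). Neighbours in either order did not overlap.

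HFE (ENSG00000010704) lies on GRCh37 chromosome 6 between 26087509 and 26098571 (+ strand). It encodes an MHC class I-like protein that binds the transferrin receptor and takes part in hepcidin control. It had 239, 295 and 228 reads under DMSO and 299, 337 and 295 under fostamatinib. The read numbers of the groups touch, but after scaling for depth all treated samples were higher. Its change was 0.38 ± 0.087 in log2 units (SE, limma adjusted p = 3.81e-04), from 4.11 ± 0.17 to 4.50 ± 0.062 log2 CPM (SD, n = 3). A histone gene, HIST1H2BC, has exons that overlap HFE on the other strand and had 100, 134 and 108 reads under DMSO and 219, 241 and 193 under fostamatinib. The library kit keeps the strand, but the sources used here do not give the strand setting of the count, and the part of this overlap in the HFE value was not tested.

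IREB2 (ENSG00000136381) lies on GRCh37 chromosome 15 between 78729773 and 78793795 (+ strand). It encodes iron regulatory protein 2. It had 1463, 1504 and 1615 reads under DMSO and 1592, 1717 and 1607 under fostamatinib, and all treated samples were higher on the log2 CPM scale. Its change was 0.19 ± 0.047 in log2 units (SE, 95% interval 0.094 to 0.29, limma adjusted p = 1.03e-03). ACO1, which encodes iron regulatory protein 1 and acts as cytosolic aconitase when it carries an iron-sulfur cluster, rose by 0.23 (SE 0.047, limma adjusted p = 1.00e-04). IREB2 minus ACO1 was -0.00020 ± 0.14 with DMSO and -0.042 ± 0.046 with fostamatinib (SD, n = 3), with overlapping groups (exact permutation test, two-sided p = 0.70). This test does not show that both genes changed alike.

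**Figure D3:**
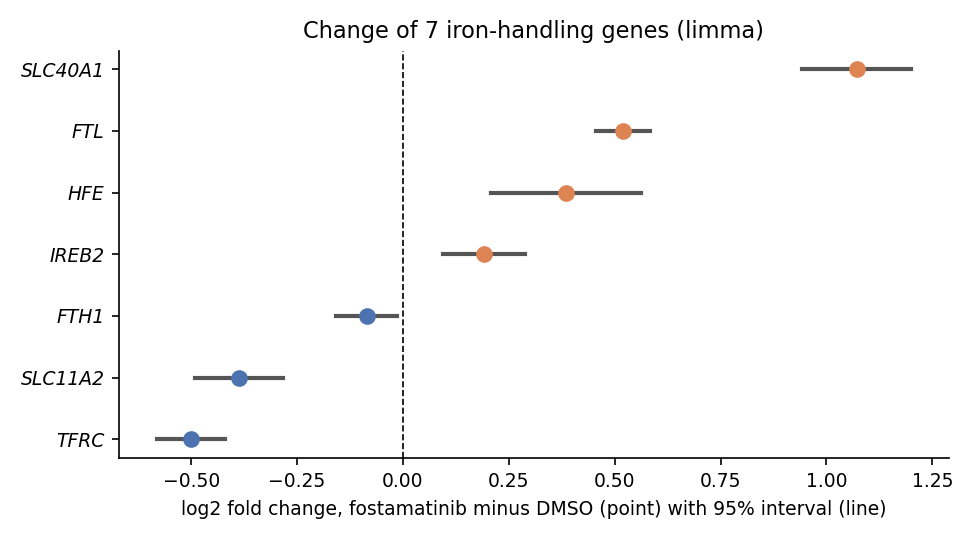
The horizontal axis is the log2 fold change of fostamatinib against DMSO for the 7 tested genes, with 95% intervals from limma as lines. SLC40A1, FTL, HFE and IREB2 (orange) lie above 0, SLC11A2 and TFRC (blue) lie below it, and the interval of FTH1 (blue) ends at -0.015.

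Set by hairpin position, 2 of the 3 members with a 5′ hairpin, FTL and SLC40A1, rose and FTH1 was at -0.086. Both genes with a known 3′ element, TFRC and SLC11A2, fell. HFE, IREB2 and ACO1, whose 3′ UTR matches have 1 unpaired position like that of SLC11A2, rose by 0.38, 0.19 and 0.23. Genes with a 3′ match thus moved both ways. Other mRNAs described as IRE carriers were read beside them, placed by description and not by the search. The search gave a fully paired 3′ UTR match for CDC14A and none for EPAS1 or CDC42BPA. EPAS1, a hypoxia factor described with a 5′ element, fell by 0.66 on the log2 scale (limma adjusted p = 4.25e-17). CDC14A and CDC42BPA, a phosphatase and a kinase gene described with 3′ elements, were at -0.49 and -0.23 (limma adjusted p = 0.0160 and 1.46e-04). Across the 170 listed genes with a fully paired match anywhere in a protein-coding transcript, 47 were higher and 48 lower, with a median change of 0.0045. That is 55.9% in all beside 47.8% of all genes, which also include pseudogenes and are not a like set. FBXL5, the iron-sensing ligase subunit that removes iron regulatory protein 2, did not pass (-0.11, limma adjusted p = 0.114). CDC14A, CDC42BPA and FBXL5 are named after their values were seen. Protein levels, translation and iron itself were not measured.

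The other iron genes were described from 8 lists of 106 genes, of which 94 were listed. Of these, 22 were higher and 31 lower, 56.4% in all beside 47.8% of all genes. The share higher was 23.4% against 23.3%, and the share lower 33.0% against 24.5%. Where at least 10 reads were asked of every sample, 50 of 87 pathway genes were called, beside 55.1% of all genes tested. The median change of the 94 genes was -0.051. Of the 94, 7 had an adjusted p under 0.05, changed more than 2-fold and did not overlap between groups. That is 7.45%, near the 6.85% of all genes that met the same conditions, and 2 of the 7 (HFE2 and ERFE) passed the filter on low reads through 1 group only.

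**Figure D4:**
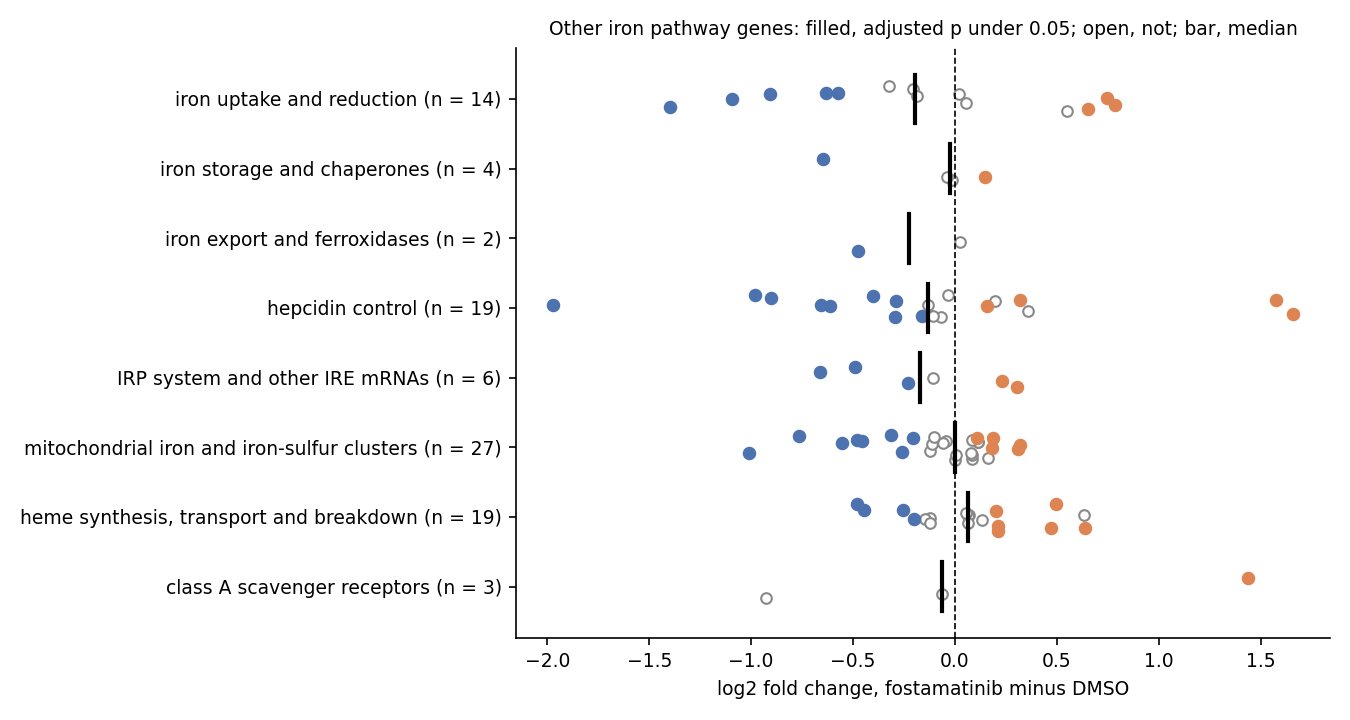
Each point is 1 gene of 8 iron-related lists, placed by its log2 fold change of fostamatinib against DMSO on the horizontal axis, with vertical scatter for visibility only. Filled points had an adjusted p under 0.05 (orange higher, blue lower), open points did not, and black bars are list medians, which lie between -0.23 and 0.066.

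In the uptake and reduction list, 3 of 14 genes rose, 5 fell and 6 did not pass, with a median of -0.20. Of all genes, 23.3% were higher and 24.5% lower. SLC39A14, the zinc and iron transporter ZIP14 of hepatocytes, had the largest rise, from 4802, 5506 and 5543 reads to 8252, 9083 and 8333 (log2 change 0.79 ± 0.037 SE, limma adjusted p = 3.07e-19). Its relative SLC39A8 (ZIP8) fell from 513, 508 and 557 reads to 242, 228 and 224 (log2 change -1.09 ± 0.076 SE, limma adjusted p = 2.16e-14). The groups of both genes lay apart, in opposite directions. STEAP4, a metalloreductase, fell by 1.40 on the log2 scale on few reads, from 14, 28 and 35 to 7, 8 and 10 (limma adjusted p = 1.08e-03).

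The following 3 genes of this list were named after their values were seen. TF, transferrin, the ligand of the transferrin receptor, had 8641, 9657 and 9460 reads under DMSO and 13076, 14733 and 13235 under fostamatinib, and it rose by 0.65 (SE 0.034, limma adjusted p = 9.48e-18) while its receptor fell. STEAP3, the endosomal ferrireductase that works with DMT1, fell by 0.63 on the log2 scale (limma adjusted p = 8.56e-12). HP, haptoglobin, which binds free hemoglobin, fell by 0.91 on the log2 scale (limma adjusted p = 6.46e-15).

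Of 4 storage genes outside the members, the iron chaperone gene PCBP1 rose by 0.15 (limma adjusted p = 9.34e-04), PCBP4 fell by 0.65 on the log2 scale (limma adjusted p = 8.46e-09) and the other 2 did not pass. One of these, named after its value was seen, is NCOA4, the receptor that takes ferritin to the lysosome, at -0.014 (limma adjusted p = 0.774). CP, ceruloplasmin, the plasma ferroxidase that works with ferroportin, fell from 1390, 1509 and 1595 reads to 946, 1074 and 1014 (log2 change -0.48 ± 0.052 SE, limma adjusted p = 1.18e-09), opposite to SLC40A1. The other listed export gene, the heme exporter gene FLVCR1, did not pass (0.026, limma adjusted p = 0.807).

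The hepcidin control list had 4 genes higher, 9 lower and 6 that did not pass, with a median of -0.13. Beside it, 23.3% of all genes were higher and 24.5% lower. CREB3L3, a liver transcription factor, rose from 717, 801 and 819 reads to 2156, 2278 and 2110 (log2 change 1.58 ± 0.048 SE, limma adjusted p = 1.40e-24). HFE2, the symbol under which the files list hemojuvelin, had 2, 4 and 2 reads under DMSO and 11, 7 and 8 under fostamatinib, and ERFE, erythroferrone, had 7, 6 and 6 reads under DMSO and 2, 3 and 0 under fostamatinib. HFE2 reached the authors' minimum of 5 reads in the fostamatinib group alone and ERFE in the DMSO group alone, so each was in the files only through the group where it is higher. No support is drawn from their adjusted p-values (0.0113 and 0.0235 from limma), and the counts are too low to size a change. Where that minimum was asked of each group, 91 pathway genes were left, and 51 of them were called. Named after their values were seen, ID1 and SMAD6, target genes of BMP signalling, fell by 0.98 and 0.90 on the log2 scale (limma adjusted p = 2.62e-19 and 6.87e-12). Hepcidin itself was not analysed here.

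Of 27 genes for mitochondrial iron and iron-sulfur clusters, 5 rose, 8 fell and 14 did not pass, with a median of -0.0010. SLC25A37 (mitoferrin 1), an importer of iron into mitochondria, fell from 803, 852 and 784 reads to 362, 404 and 371 (log2 change -1.01 ± 0.064 SE, limma adjusted p = 1.24e-15). The scaffold gene ISCU had the largest rise of the list, 0.32 (limma adjusted p = 3.13e-05). Of 19 heme genes, 6 rose, 4 fell and 9 did not pass. The counts of both lists stand beside 47.8% of all genes called, 23.3% higher and 24.5% lower. ALAD, an enzyme of heme synthesis, rose by 0.64 (SE 0.062, limma adjusted p = 1.21e-10), and BACH1, a heme-sensing repressor, fell by 0.48 on the log2 scale (limma adjusted p = 6.44e-10). HMOX1, heme oxygenase 1, named after its value was seen, did not pass, with 0.052 (limma adjusted p = 0.553).

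Markers of cell types were read beside these values, though all samples are of the cultured Huh7SR line. All 8 hepatocyte markers, among them ALB, AFP and APOB, were listed. All 8 passed as higher, as did 23.3% of all genes, while 24.5% of all genes passed as lower. The summed level of these markers was 4136 to 4407 CPM with DMSO and 5320 to 5664 CPM with fostamatinib. Their part in the iron genes' changes was not tested, and TF is one of the 8. Of 8 fibroblast markers, 5 were listed, at a summed 297 to 306 CPM with DMSO and 308 to 312 CPM with fostamatinib, with 2 higher, 1 lower and 2 that did not pass. COL1A2, from 1929, 2214 and 2143 reads to 2484, 2670 and 2460, and LUM, from 2046, 2229 and 2258 reads to 1604, 1542 and 1501, moved in opposite directions and held most of the sum. DCN, PDGFRA and THY1 are not among the listed genes. Of 8 leukocyte markers only CD14 and MSR1 were listed, at a summed level between 3.51 and 4.64 CPM in the 6 samples. Of 8 erythroid markers only EPOR was listed, at 7.37 to 10.1 CPM with DMSO and 10.1 to 16.1 CPM with fostamatinib.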

How the data were processed

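RNA of 6 samples of Huh7SR cells, 3 per group, was analysed at gene level. The authors aligned to hg19 (HISAT), assigned reads to GENCODE v.22 genes (featureCounts), dropped genes under 5 reads in 2 or more of the 3 samples of each group, and applied TMM scaling. What they deposited, 1 file per sample, is log2 CPM with 0.5 added to each count. The test was limma 3.58.1 under R 4.3.3 (lmFit, then eBayes with a mean-variance trend, treatment as the single term) over 16305 genes with Benjamini-Hochberg adjustment, and genes with an adjusted p under 0.05 were called. Very small adjusted p-values rest on pooling the spread over genes (median 33.9 total against 4 residual degrees of freedom). Whole reads were recovered from every value (within 0.05). One gene listed 7 times was used once. Differences between genes were tested by exact permutation over samples with Python 3.11.15. The fit was tested on simulated data. Coordinates, hairpins and transcript lengths are from GRCh37, the same build as hg19, with GENCODE 44 mapped to it, in which 98.7% of identifiers were found. Members and gene lists were chosen with earlier results of these data known. Named were all members, list genes that passed, changed more than 2-fold and did not overlap, the largest rise and fall that passed in each list, ACO1, the most abundant ferritin pseudogene of each chain and the 5 genes most like SCARA5. Others, FLVCR1, MSR1 and SCARA3 included, were named after their values were seen. Replicates differed by 1.64 to 3.74 times counting variance and groups by 39.7 to 44.3 times, so each sample was counted once. The result for 1 list gene that this rule names is not reported here.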

Additional observations from a re-analysis of the deposited data

How the results depend on the processing

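The alternatives were limma-voom on recovered reads, no variance trend, RLE or library-size scaling, 2 stricter filters, 2 added to each count, a replicate block, each sample left out and a threshold of 1 expected false positive. That threshold left 4 of the 7 tested members (TFRC, SLC11A2, FTL and SLC40A1) and 33 of the 53 iron pathway genes called, beside 25.4% of all genes. Under all other settings 6 or 7 members and 45 to 53 pathway genes were called, beside 39.1% to 55.1% of all genes tested, and each member kept its direction. FTH1 was the one member lost. With each sample left out, 6 to 7 members and 45 to 50 pathway genes were called. The difference of SCARA5 was 5.33 with 2 added to each count and 5.90 to 6.21 with each sample left out, and both stricter filters remove it. The change of IREB2 minus ACO1 turned to 0.014 without DMSO replicate 1 (range -0.12 to 0.014 over the left-out samples), and the cause was not tested. Both groups use replicate numbers 1 to 3. Deviations of same-numbered samples correlated by 0.036, -0.021 and 0.037, so no shared shift by number was seen. These values cannot tell whether same-numbered samples were handled together. With the replicate block 7 members and 53 pathway genes were called. Paired within numbers, each difference between genes has a smallest exact p of 0.25. TFRC minus TFR2 was not run under any setting. Depth limits SCARA5 in the DMSO samples, HFE2, ERFE and SCARA3.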
